A study of Mus musculus with 6 samples.

Results

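The genes described here encode 9 proteins that restrain proliferation or answer stress: Btg1, Btg2 and Btg3, Tob1 and Tob2, Gadd45a, Gadd45b and Gadd45g, and the polo-like kinase gene Plk3. They were chosen by gene symbol among the 55450 genes of the count tables, with earlier results of these data known. The gene lists below were written in the same way, so their shares and those of the 9 genes are descriptive. All 9 were among the 15610 genes that passed the filter on low counts. The RNA came from long-term hematopoietic stem cells (LT-HSCs) of wild-type (WT) male C57/Bl6 mice of 22 to 24 months, an age at which mice are old. The cells were sorted as Lin-, Sca1+, cKit+, CD48- and CD150+. The CD61High libraries hold the 10% of these cells with the most surface CD61, the integrin beta 3 chain, and the CD61Low libraries the 10% with the least, with 5000 cells in each and 3 libraries per gate. The titles give 1 mouse per library and 1 pair of libraries for each of mice 1, 2 and 3, while the protocol speaks of pools, so that p-values measure the spread between 3 numbered mice only if each number is a separate animal. No young mice are among the samples, and the single comparison asks how CD61High differs from CD61Low.

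BTG and TOB proteins share an amino-terminal domain that binds the deadenylases CNOT7 and CNOT8 of the CCR4-NOT complex, which shortens the poly(A) tails of mRNAs, and forced expression of the proteins slows entry into S phase. TOB proteins also bind the poly(A)-binding protein. GADD45 proteins are small acidic proteins induced by stress and DNA damage. They bind MAP3K4 upstream of the p38 and JNK kinases, as well as PCNA and CDK1. PLK3 is a stress-responsive kinase. Blood stem cells are mostly quiescent, and in mouse T cells BTG1 and BTG2 are known to help keep the cells at rest. Btg2, Gadd45b and Plk3 are also early response genes, whose mRNAs rise quickly after a signal or a stress.

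The promoters of Btg2 and Btg1 are shown because these are close paralogs whose mRNAs had nearly the same pattern over the libraries, and the other stretches because they carry matches in other genes of the 9. The sequences are RefSeq promoters on GRCm38.p6, read on the strand of the gene, and the 250 bases before the start site of each gene were searched on both strands. The searched motifs were the full cyclic AMP response element (CRE) TGACGTCA, its shorter core TGACG and the AP-1 motif TGANTCA. The CArG box of serum response factor was also searched, as was a decamer that is only a part of a p53 site. Each full CRE also holds the core on both strands. Capitals mark the CRE or its core, and in Gadd45a the p53 decamer.
Btg2, chr1:134079156-134079405, minus strand, 250 bases before the start:
Btg2 promoter: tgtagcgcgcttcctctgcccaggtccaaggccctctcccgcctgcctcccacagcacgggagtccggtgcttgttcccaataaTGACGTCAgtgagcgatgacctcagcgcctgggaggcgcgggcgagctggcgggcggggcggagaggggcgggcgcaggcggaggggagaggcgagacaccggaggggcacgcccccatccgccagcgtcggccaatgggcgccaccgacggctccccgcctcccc
Btg1, chr10:96616751-96617000, plus strand, 250 bases before the start:
Btg1 promoter: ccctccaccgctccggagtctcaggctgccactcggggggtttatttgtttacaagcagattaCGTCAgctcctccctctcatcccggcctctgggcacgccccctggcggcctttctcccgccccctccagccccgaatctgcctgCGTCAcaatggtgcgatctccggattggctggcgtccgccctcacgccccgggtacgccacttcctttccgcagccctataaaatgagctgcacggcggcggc
Tob1, chr11:94211346-94211375, plus strand:
Tob1 site: agggcgggactgTGACGcgagcggcgcgca
Plk3, chr4:117134078-117134107, minus strand:
Plk3 site: agatctttcaggTGACGtaaggcggagcaa
Gadd45a, chr6:67037428-67037457, minus strand:
Gadd45a site: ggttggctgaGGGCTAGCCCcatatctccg
The full CRE stood 166 bases before the start of Btg2 and in the promoter of no other gene of the 9, against 1.55% of the 32851 promoters in the table. The core was found for 4 of the 9 genes (Btg1, Btg2, Tob1 and Plk3), which have 10 promoters, against 17.77% of all promoters. This motif was added after these promoters had been seen, so its count is not independent of them. The core lay 187 and 103 bases before the start of Btg1 on the opposite strand, 96 before that of Tob1, and 132 before that of Plk3. The p53 decamer was found in Gadd45a only, 40 bases before the RefSeq start, against 7.13% of all promoters. In the gene annotation matched to the counts, Gadd45a spans 67035096 to 67037457, so that this match lies inside the gene and not before its start. The searched stretch of Tob2 (81858327 to 81858576) and a stretch of Btg3 (78376811 to 78377060) also lie inside their genes in that annotation. The AP-1 motif and the CArG box, present in 6.75% and 1.47% of all promoters, were found for 0 of the 9 genes. These are matches of letters and show no binding.

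Total counts on genes were 21354130 to 26398090 per library. Counts of the 9 genes ran from 66 for Btg3 to 9960 for Btg2, both in CD61Low of mouse 2, so that each gene was well above the 3 counts that a count of 0 allows. The LT-HSC label was checked against the genes of its sort: Kit, which encodes cKit, stood at 1004 to 1918 CPM (counts after scaling every library to an equal total) in CD61High and 441 to 2105 in CD61Low, and Slamf1, which encodes CD150, at 51.7 to 140 in CD61High and 27.7 to 150 in CD61Low. Itgb3, which encodes CD61 itself, stood at 225, 129 and 245 CPM in CD61High of mice 1, 2 and 3, against 315, 98.7 and 373 CPM in CD61Low, so that the sort on surface CD61 was not mirrored by a higher Itgb3 mRNA level in mice 1 and 3. Cd48, against which the cells were sorted, stood at 6.04, 55.4 and 1.16 in CD61High of mice 1, 2 and 3, and at 31.7, 99.4 and 1.86 in CD61Low. Both libraries of mouse 2 stood apart from the rest. The share of counts from 20 neutrophil markers was 0.605%, 7.75% and 0.0537% in CD61High of mice 1, 2 and 3, against 2.32%, 12.4% and 0.238% in CD61Low. Its 95% Wilson interval was at its widest, relative to the share, in CD61High of mouse 3, at 0.0528% to 0.0546%. The intervals and the floor of 3 counts cover counting error only, since the reads carry no molecular identifiers. Fold changes of the 9 genes are therefore given with and without mouse 2.

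No gene of the 9 passed the test, but most stood lower in CD61High within each animal. In edgeR without a block, 0 of the 9 genes were called at an adjusted p under 0.05, as were 0.0% of the 15610 genes tested, and 0 of the 9 had an unadjusted p under 0.05, against 6.55% of all genes. DESeq2 and limma voom without a block also called 0 of the 9. With the mouse number added as a block, so that libraries of an animal are compared with each other, edgeR again called 0 of the 9, against 0.256% of all genes. There, 5 of the 9 (Btg1, Btg2, Tob1, Gadd45a and Gadd45b) were lower in CD61High at an unadjusted p under 0.05, against 12.8% of all genes. The median log2 fold change of CD61High over CD61Low was -0.45 over the 9 genes and -0.05 over all genes tested, or -0.43 and -0.02 with the block. Btg1, Btg2, Tob1, Gadd45a, Gadd45b and Plk3, 6 of the 9 genes, were lower in CD61High in 3 of 3 mice, against 24.7% of all genes. None of the 9 had groups that did not overlap, against 14.3% of all genes. All values below are in CPM adjusted by trimmed mean of M values (TMM), and each difference is CD61High minus CD61Low.

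**Figure D1:**
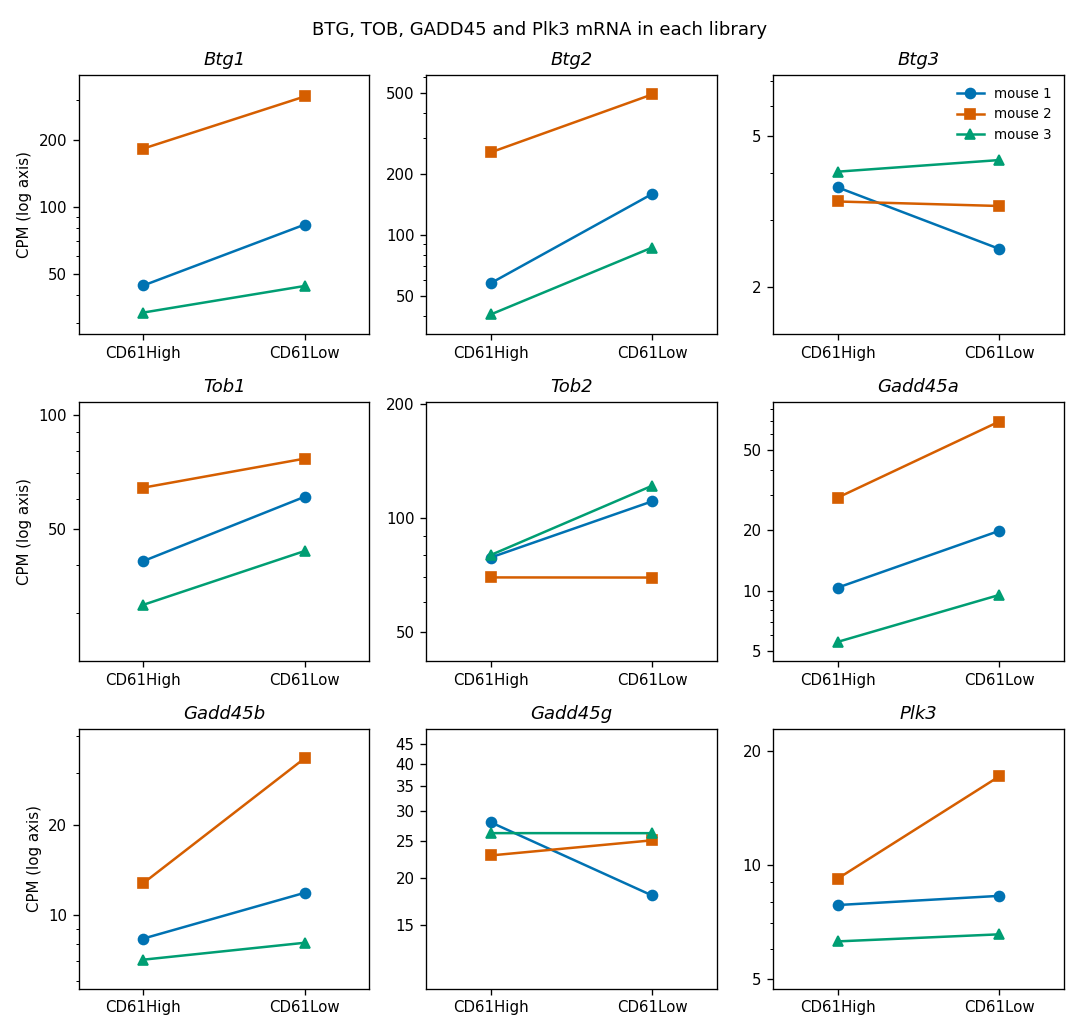
TMM-adjusted CPM (log axis, scaled for each gene) of the 9 genes in CD61High and CD61Low; each line joins the 2 libraries of a mouse. For Btg1, Btg2, Tob1, Gadd45a, Gadd45b and Plk3 all 3 lines are higher at CD61Low and mouse 2 is highest in both gates, whereas Btg3, Tob2 and Gadd45g have no such pattern.

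Btg2 (ENSMUSG00000020423.6, GRCm38 chromosome 1, 134075170 to 134079120) encodes an antiproliferative partner of the deadenylases and is a p53 target as well as an early response gene. It stood at 57.8, 255 and 40.5 CPM in CD61High of mice 1, 2 and 3, against 159, 493 and 86.7 CPM in CD61Low. Each CD61High library was below its CD61Low partner, but the gates overlapped, because CD61High of mouse 2 exceeded CD61Low of mice 1 and 3. The log2 difference was -1.46, -0.95 and -1.09 in mice 1, 2 and 3, or 0.364, 0.518 and 0.468 of the CD61Low level. In edgeR without the block the log2 fold change was -1.06 (SE 0.93, adjusted p = 0.909). The blocked fit gave -1.17 (SE 0.15, adjusted p = 0.0512), just outside the threshold. The difference was called with the block in DESeq2 (-1.19, adjusted p = 8.5e-09; 10.0% of all genes were called, 7.11% lower) and limma voom (-1.16, adjusted p = 0.0326; 2.13% called, 1.63% lower), in edgeR with relative log expression (RLE) factors (-1.19, adjusted p = 0.0497; 0.564% called, 0.404% lower) and in edgeR without mouse 2 (-1.30, adjusted p = 0.0235; 4.77% called, 2.93% lower). Its level differed more between mice than between gates, with the mouse means spanning 2.58 log2 units.

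Btg1 (ENSMUSG00000036478.8, chromosome 10, 96617006 to 96622809), the closest relative of Btg2, stood at 44.4, 182 and 33.5 CPM in CD61High of mice 1, 2 and 3, against 83.2, 312 and 44.1 CPM in CD61Low. As for Btg2, every CD61High library was below its partner and mouse 2 was the highest in both gates. Its log2 differences were -0.91, -0.78 and -0.40. Over the groups the fold change was -0.76 (SE 0.95, adjusted p = 0.940) in edgeR without the block and -0.69 (SE 0.15, adjusted p = 0.0793) with it. DESeq2 with the block called Btg1 (-0.72, adjusted p = 0.00195), as it did 10.0% of all genes, 7.11% as lower. Without both libraries of mouse 2 the edgeR fold change was -0.73 (SE 0.33, adjusted p = 0.297) without the block and -0.67 (SE 0.18, adjusted p = 0.0921) with it. Leaving out 1 library of that pair moved the unblocked value to 0.45 without CD61Low and to -1.91 without CD61High of mouse 2. Mouse means of Btg1 spanned 2.63 log2 units.

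Btg3 (ENSMUSG00000022863.15, chromosome 16, 78332637 to 78377192), a family member with the same conserved domain, was the lowest of the 9 genes. It stood at 3.66, 3.36 and 4.03 CPM in CD61High of mice 1, 2 and 3, against 2.52, 3.27 and 4.32 CPM in CD61Low. Within mice, the gates differed by 0.53, 0.04 and -0.10 on the log2 scale, so that the mice did not share a direction. Its log2 fold change was 0.13 (SE 0.34, adjusted p = 0.948) in edgeR without the block and 0.16 (SE 0.31) with it. The unblocked value was 0.16 (SE 0.40) without mouse 2 and -0.05 without mouse 1. Of its exon sequence, 17.3% is shared with Cxadr, and without strand the reads of the overlap cannot be told apart.

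Tob1 (ENSMUSG00000037573.5, chromosome 11, 94211454 to 94215495) stood at 41.0, 64.1 and 31.5 CPM in CD61High of mice 1, 2 and 3, against 60.7, 76.5 and 43.6 CPM in CD61Low. Each CD61High library was below its partner, by a log2 difference of -0.56, -0.25 and -0.47. The SD of 0.16 between these 3 differences was the smallest among the 9 genes. The log2 fold change was -0.40 (SE 0.33, adjusted p = 0.895) in edgeR without the block and -0.43 (SE 0.14, adjusted p = 0.165) with it. Without mouse 2 the values were -0.54 (SE 0.22) without the block and -0.53 (SE 0.14, adjusted p = 0.0871) with it. Mouse means of Tob1 spanned 0.92 log2 units, far less than those of Btg1 or Btg2.

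Tob2 (ENSMUSG00000048546.8, chromosome 15, 81848272 to 81858796), its paralog, had a different pattern over the mice. It stood at 78.8, 69.8 and 80.0 CPM in CD61High of mice 1, 2 and 3, against 111, 69.8 and 122 CPM in CD61Low. CD61High was lower in mice 1 and 3, with log2 differences of -0.49 and -0.61, while both libraries of mouse 2 were level at a difference of 0.00. Over the groups its log2 fold change was -0.40 (SE 0.23, adjusted p = 0.818) in edgeR without the block and -0.37 (SE 0.16, adjusted p = 0.259) with it. Without mouse 2 it was -0.57 in both fits, with an adjusted p of 0.0904 without the block and 0.0611 with it. Tob2 was lowest, not highest, in mouse 2, and its CD61High libraries differed by 0.20 log2 units at most. Gm49476 shares 4.34% of its exon sequence.

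**Figure D2:**
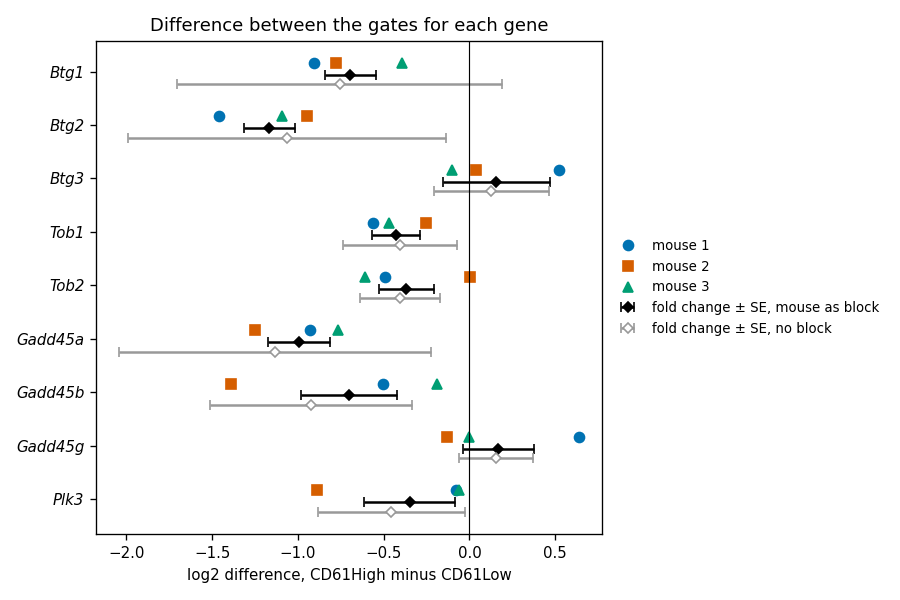
log2 difference between CD61High and CD61Low for each gene in each mouse (coloured points), with the edgeR log2 fold change and its SE with the mouse as a block (black) and without (grey). The SE of Btg1, Btg2 and Gadd45a is 0.15 to 0.18 with the block and 0.91 to 0.95 without. The points of Btg3 and Gadd45g lie on both sides of 0, and those of Tob2 below 0 in mice 1 and 3 and at 0 in mouse 2.

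Gadd45a (ENSMUSG00000036390.8, chromosome 6, 67035096 to 67037457), a p53 target of the DNA damage response, stood at 10.4, 29.0 and 5.58 CPM in CD61High of mice 1, 2 and 3, against 19.8, 69.3 and 9.53 CPM in CD61Low. Each CD61High library was below its partner and mouse 2 was highest in both gates, as for Btg1 and Btg2. The log2 difference was -0.93, -1.25 and -0.76. The log2 fold change was -1.13 (SE 0.91, adjusted p = 0.890) in edgeR without the block and -0.99 (SE 0.18, adjusted p = 0.0657) with it. It was called with the block in DESeq2 (-1.02, adjusted p = 0.000232) and limma voom (-1.06, adjusted p = 0.0464). These fits called 10.0% and 2.13% of all genes, 7.11% and 1.63% as lower. Without mouse 2 the edgeR fold change was -0.91 (SE 0.46) without the block and -0.87 (SE 0.22, adjusted p = 0.0859) with it. Leaving out 1 library of that pair moved the unblocked value to 0.03 without CD61Low and to -2.04 without CD61High of mouse 2. The noncoding gene E230016M11Rik shares 19.1% of its exon sequence.

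Gadd45b (ENSMUSG00000015312.9, chromosome 10, 80930073 to 80932204), an early response gene of NF-kB and TGF-beta signalling, stood at 8.35, 12.8 and 7.09 CPM in CD61High of mice 1, 2 and 3, against 11.9, 33.7 and 8.08 CPM in CD61Low. The CD61High library was the lower one in each pair, but mouse 2 carried most of the gap, with log2 differences of -0.51, -1.39 and -0.19. Over the groups its log2 fold change was -0.92 (SE 0.59, adjusted p = 0.842) in edgeR without the block and -0.70 (SE 0.28, adjusted p = 0.227) with it. Without mouse 2 it was -0.39 (SE 0.29) without the block and -0.37 (SE 0.26) with it.

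Gadd45g (ENSMUSG00000021453.2, chromosome 13, 51846678 to 51848468) had the narrowest range of the 9 genes. It stood at 28.0, 22.9 and 26.2 CPM in CD61High of mice 1, 2 and 3, against 17.9, 25.1 and 26.2 CPM in CD61Low. Only mouse 1 had a sizeable difference, at 0.64 log2 units, beside -0.13 and 0.00 in mice 2 and 3. For Gadd45g edgeR gave a log2 fold change of 0.16 (SE 0.22, adjusted p = 0.940) without the block, 0.17 (SE 0.21) with it. The unblocked value was 0.28 (SE 0.23) without mouse 2 and -0.07 without mouse 1. Its highest library was 1.56 times its lowest, against 12.4 times for Gadd45a and 12.2 times for Btg2.

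Plk3 (ENSMUSG00000028680.14, chromosome 4, 117128655 to 117133963) stood at 7.83, 9.20 and 6.28 CPM in CD61High of mice 1, 2 and 3, against 8.28, 17.1 and 6.55 CPM in CD61Low. The gates were close in mice 1 and 3, with log2 differences of -0.08 and -0.06, and apart in mouse 2, with -0.89. Over the groups its log2 fold change was -0.45 (SE 0.43, adjusted p = 0.924) in edgeR without the block and -0.35 (SE 0.27, adjusted p = 0.495) with it. Without mouse 2 the unblocked value was -0.09, and without CD61Low of mouse 2 alone it was 0.07. Tctex1d4 shares 3.32% of its exon sequence.

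Levels were compared between genes per kilobase of annotated exon. The length included exon bases shared with other genes, while ambiguous reads were left out of the counts. Levels may therefore be understated for Gadd45a (19.1% shared) and Btg3 (17.3%), and with them the order. In CD61High the order of mean levels was Btg2 (43.0 ± 43.5 CPM per kilobase, SD, n = 3), Gadd45g (21.9 ± 2.21), Tob1 (19.9 ± 7.34), Btg1 (16.4 ± 15.7), Tob2 (11.4 ± 0.834), Gadd45a (8.50 ± 7.03), Gadd45b (5.93 ± 1.89), Plk3 (3.07 ± 0.578) and Btg3 (0.917 ± 0.0833). Each of the first 6 had a range that overlapped that of the next gene, while Gadd45b lay above Plk3 and Plk3 above Btg3 in every CD61High library. In CD61Low Btg2 was again highest (89.8 ± 79.0), followed by Btg1 (27.8 ± 27.5), Tob1 (26.3 ± 7.19), Gadd45g (19.7 ± 3.82), Gadd45a (18.6 ± 18.1), Tob2 (15.1 ± 4.12), Gadd45b (11.2 ± 8.68), Plk3 (4.21 ± 2.24) and Btg3 (0.839 ± 0.226). There, only Plk3 and Btg3 were neighbours whose ranges did not overlap. Btg2 was above Btg1 in 3 of 3 CD61Low libraries, although the ranges of both genes over the mice overlapped.

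Patterns over the mice differed among the 9 genes. For the 6 genes that were lower in CD61High in each mouse, a set picked from these values, the mouse means were ordered mouse 2, mouse 1, mouse 3, an order that 27.3% of all genes tested shared. Their log2 CPM values correlated with each other at Pearson's r of 0.83 to 0.99 in the 15 pairs over the 6 libraries. With Btg3, Tob2 and Gadd45g they correlated at -0.65 to -0.10. Among these 3 genes the values were 0.87 for Gadd45g with Btg3, -0.33 for Gadd45g with Tob2 and -0.0027 for Btg3 with Tob2. The mouse means of Tob2 were lowest in mouse 2, and those of Btg3 and Gadd45g were lowest in mouse 1. These values are descriptive, since the 6 libraries come from 3 mice and both libraries of mouse 2 stand apart.

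Marker shares of neutrophils, monocytes, B lineage cells and T and NK cells had nearly the same order over the libraries as Btg2. The erythroid share was also highest in CD61Low of mouse 2 but lowest in CD61Low of mouse 3. The megakaryocyte share went the other way, with its lowest value in CD61Low of mouse 2 and its highest in CD61Low of mouse 3. Btg2 and the neutrophil markers were both highest in CD61Low of mouse 2, then in CD61High of mouse 2, CD61Low of mouse 1, and both were lowest in CD61High of mouse 3. The 20 neutrophil and 12 monocyte markers were all lower in CD61High in each mouse, as were 13 of 15 erythroid, 9 of 14 tested B lineage and 5 of 11 tested T and NK cell markers. Of 10 tested megakaryocyte markers 6 were higher and 1 lower in all 3 mice, and the share of the list was 0.166% to 0.340% in CD61High and 0.0800% to 0.348% in CD61Low. No marker was called without the block, and with it the megakaryocyte markers Gp5, Gp9 and Itga2b rose and the erythroid marker Tspo2 fell. Of the genes of the sort, Ly6a, which encodes Sca1, fell with the block. Among other stem and progenitor cell genes, which were not sorted on, Cd34 rose and Procr fell with it. The monocyte list had a share of 0.0410% to 0.942% in CD61High and 0.0595% to 1.46% in CD61Low. The share of erythroid markers was 0.330% to 1.81% in CD61High and 0.315% to 3.09% in CD61Low. For B lineage markers it was 0.00588% to 0.439% in CD61High and 0.00753% to 0.564% in CD61Low, and for T and NK cell markers 0.00897% to 0.0255% in CD61High and 0.0111% to 0.0310% in CD61Low. Of the neutrophil markers only Ctsg, in CD61High of mouse 3, was at 0 counts. B lineage markers were at 0 in mice 1 and 3: Pax5 and Rag2 in CD61High of mouse 1, Pax5, Igll1, Rag1 and Rag2 in CD61High of mouse 3, and Igll1 and Rag1 in CD61Low of mouse 3. Of the T and NK cell markers, Cd3g, Cd8a, Trbc2, Ncr1 and Gzma were at 0 in CD61High of mouse 3 and Trbc2, Ncr1, Gzma and Il7r in CD61Low of mouse 3.

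**Figure D3:**
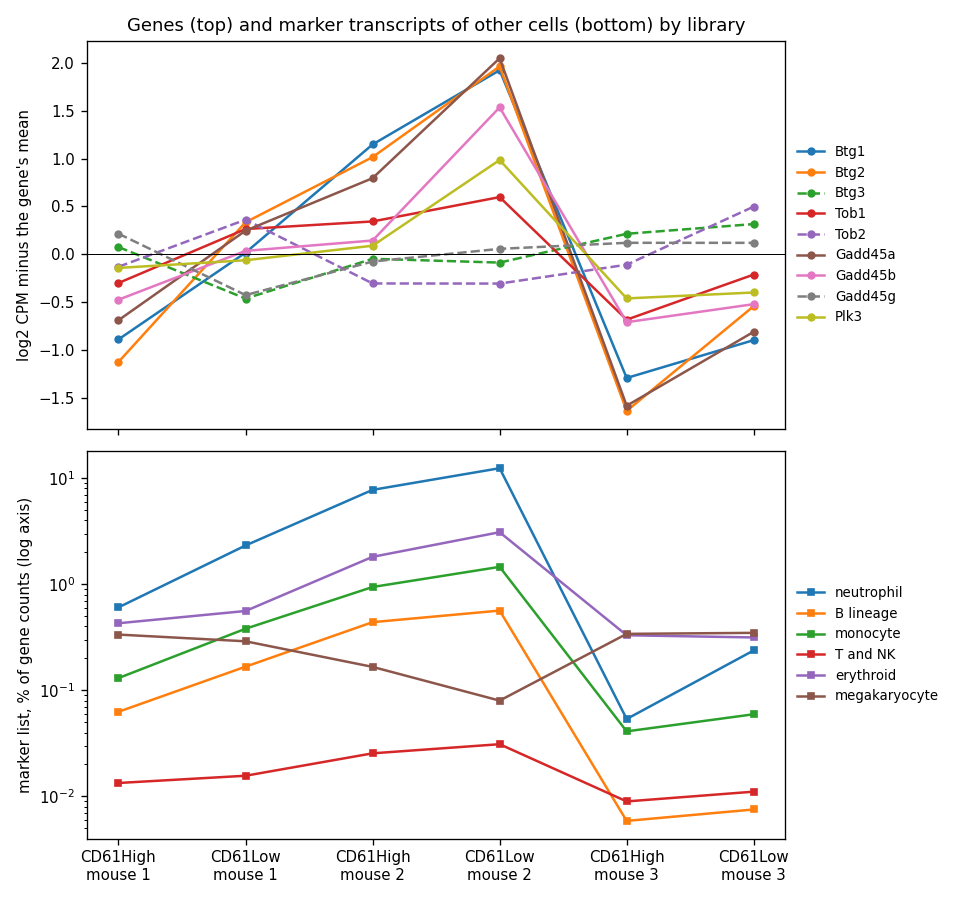
Top, log2 CPM of each gene minus its own mean over the 6 libraries, with Btg3, Tob2 and Gadd45g dashed; bottom, share of gene counts taken by markers of 6 other cell types (log axis). Libraries run by mouse with CD61High left of CD61Low, and the solid lines and the neutrophil line both peak in CD61Low of mouse 2, where neutrophil markers took 12.4% of counts.

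The gaps within each mouse are given side by side. The median log2 difference of the neutrophil markers was -2.01, -0.80 and -2.64 in mice 1, 2 and 3, beside -1.46, -0.95 and -1.09 for Btg2, -0.91, -0.78 and -0.40 for Btg1 and -0.93, -1.25 and -0.76 for Gadd45a. The part of other cells in the levels of these genes was not tested, and in bulk libraries fewer cells of a type and less RNA per cell cannot be told apart. The TMM factor of CD61Low of mouse 2 was 0.767, against 0.926 to 1.11 for the other libraries. With library sizes alone, the sign of all 9 genes was as with TMM factors, and Btg2 had a blocked log2 fold change of -1.08 (adjusted p = 0.156).

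The genes with the most similar pattern were named by Pearson's r of log2 CPM over the 6 libraries among 10613 genes with a mean of at least 5 CPM, as a description. For Btg1 they were the haemoglobin genes Hbb-bt (r = 0.9996) and Hbb-bs (0.9988) and Slc25a37 (0.9988), the mitochondrial iron importer of erythroid cells. For Btg2 they were Ctsh (0.9992), a lysosomal cysteine protease, Tmem243 (0.9986) and Ets1 (0.9978), a transcription factor of lymphoid cells. Ctsh also followed Btg2 in the size of its gap, with log2 differences of -1.87, -1.06 and -1.18 in mice 1, 2 and 3. For Tob1 they were Satb1 (0.9956), a chromatin organizer, Gpat3 (0.9952) and Fcmr (0.9949), the receptor of IgM. Fcmr had much larger gaps than Tob1, at -4.53, -1.10 and -2.85. For Gadd45a they were Scpep1 (0.9965), Nck1 (0.9960) and Rnd1 (0.9952), for Gadd45b Fxyd5 (0.9950), Dgka (0.9917) and Trappc6b (0.9902), and for Plk3 Cdk11b (0.9977), Pias4 (0.9953) and Cyb5a (0.9951). Tob2 was most like Atf7ip (0.9968), Magi2 (0.9932) and H6pd (0.9929), Gadd45g most like Sirt6 (0.9914), Ctdspl (0.9691) and Thg1l (0.9669), and Btg3 most like Lrrc45 (0.9774), Dym (0.9530) and Rhebl1 (0.9528).

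The partners through which BTG and TOB proteins act had a median fold change close to that of all genes, but more of them were higher than lower in each mouse. The list of the deadenylation machinery held 16 genes, with the BTG partner Prmt1 counted among them. Of the 16, 0 were called in edgeR with or without the block, and the median log2 fold change was 0.07, against -0.05 over all genes tested. In this list, 6 of 16 were higher and 1 of 16 lower in all 3 mice, that is 37.5% and 6.25%, against 20.6% and 24.7% of all genes. Prmt1, an arginine methyltransferase that binds BTG1 and BTG2, stood at 244 ± 27.2 CPM in CD61High and 161 ± 21.6 CPM in CD61Low (SD, n = 3). CD61High exceeded CD61Low by 0.79, 0.48 and 0.53 log2 units in mice 1, 2 and 3, with a log2 fold change of 0.60 (SE 0.17, adjusted p = 0.663, or 0.0814 with the block). Cnot9, a subunit of CCR4-NOT, stood at 126 ± 12.4 CPM in CD61High and 85.4 ± 24.4 CPM in CD61Low, with a log2 fold change of 0.56 (SE 0.23, adjusted p = 0.752).

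GADD45 partners and the p38 and JNK cascade gave 0 calls among 14 genes with or without the block, at a median of 0.05. Of the 14, 2 (14.3%) were higher and 0 lower in CD61High in all 3 mice, against 20.6% and 24.7% of all genes. Tdg, a DNA glycosylase that acts with GADD45A in DNA demethylation, stood at 21.2 ± 0.286 CPM in CD61High and 14.7 ± 4.26 CPM in CD61Low (SD, n = 3), with a log2 fold change of 0.53 (SE 0.25, adjusted p = 0.760). Map2k6, a kinase of p38, stood at 7.74 ± 0.598 CPM in CD61High and 5.32 ± 1.51 CPM in CD61Low, with a log2 fold change of 0.54 (SE 0.32, adjusted p = 0.825).

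Among the other polo-like kinases, 0 of 4 were called without the block and 1, Plk2, fell with it. Plk2, a stress-induced kinase like Plk3, stood at 71.8, 17.7 and 59.0 CPM in CD61High of mice 1, 2 and 3, against 253, 53.1 and 178 CPM in CD61Low. The gap was -1.82, -1.58 and -1.59 log2 units, and the blocked log2 fold change -1.67 (SE 0.13, adjusted p = 0.0308; -1.71, SE 0.72, adjusted p = 0.752 without the block). Unlike the 6 genes above, Plk2 was lowest in mouse 2. Of the others, the mitotic kinase Plk1 (log2 fold change 0.32, SE 1.16), the centriole kinase Plk4 (0.45, SE 0.72) and Plk5 (0.07, SE 0.88) were not called in edgeR without the block. With it their log2 fold changes were 1.33 (SE 0.81, adjusted p = 0.398) for Plk1, 0.81 (SE 0.49, adjusted p = 0.395) for Plk4 and 0.29 (SE 0.95) for Plk5.

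The immediate-early list, to which Btg2 and Gadd45b are akin, had lower values in CD61High. Of its 27 genes, 0 were called without the block and 1, Fos, fell with it (log2 fold change -1.53, SE 0.17, adjusted p = 0.0446), against 0.256% of all genes called with it. The median log2 fold change was -0.79, and the median difference -0.83, -0.74 and -1.07 in mice 1, 2 and 3, beside -0.51, -0.78 and -0.40 for the 9 genes. In all 3 mice 20 of the 27 (74.1%) were lower, against 24.7% of all genes. Egr1, a transcription factor with early response kinetics, stood at 464 ± 114 CPM in CD61High and 1273 ± 391 CPM in CD61Low (SD, n = 3), with a log2 fold change of -1.46 (SE 0.32, adjusted p = 0.652). Csrnp1, a nuclear protein of the same class, stood at 35.3 ± 2.33 CPM in CD61High and 54.2 ± 1.05 CPM in CD61Low, with a log2 fold change of -0.62 (SE 0.14, adjusted p = 0.652).

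**Figure D4:**
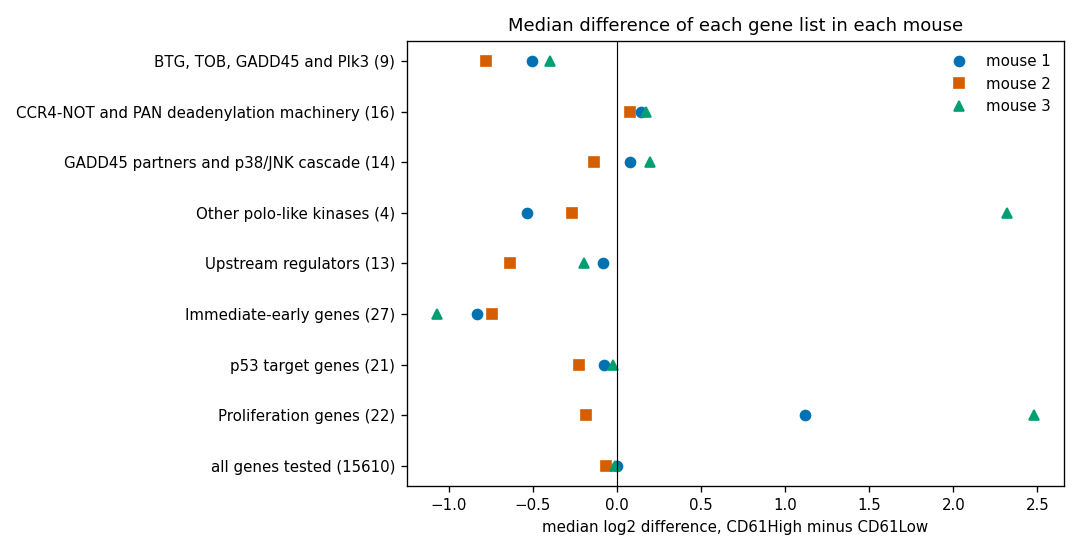
Median log2 difference between CD61High and CD61Low of each gene list in each mouse, with the number of genes tested in brackets. The 9 genes and the 27 immediate-early genes lie below 0 in all 3 mice, the 21 p53 targets close to 0, and the 22 proliferation genes at 1.12, -0.19 and 2.48 in mice 1, 2 and 3.

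Other p53 targets went both ways. Of 21 genes, 4 were higher and 6 (28.6%) lower in CD61High in all 3 mice, against 20.6% and 24.7% of all genes. Of these 21, 0 were called with or without the block, and the median log2 fold change was -0.07, close to the -0.05 of all genes tested. Sesn2, a stress-induced inhibitor of mTORC1, stood at 33.8 ± 6.64 CPM in CD61High and 54.9 ± 5.27 CPM in CD61Low (SD, n = 3), with a log2 fold change of -0.70 (SE 0.19, adjusted p = 0.656). Xpc, a damage sensor of nucleotide excision repair, stood at 116 ± 10.1 CPM in CD61High and 151 ± 8.47 CPM in CD61Low, with a log2 fold change of -0.37 (SE 0.14, adjusted p = 0.725). Of 13 tested upstream regulators, 0 were called and the median was -0.32. In all 3 mice 6 (46.2%) of them were lower in CD61High and 3 (23.1%) higher, against 24.7% and 20.6% of all genes. Egr1, described above, is also in this list. Nfkb1, an NF-kB subunit, stood at 219 ± 26.0 CPM in CD61High and 138 ± 11.6 CPM in CD61Low, with a log2 fold change of 0.67 (SE 0.15, adjusted p = 0.652).

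Proliferation genes, against which these proteins act, had a median difference above 0 in mice 1 and 3 and below 0 in mouse 2. In all 3 mice 6 of 22 (27.3%) were higher in CD61High and 1 was lower, against 20.6% and 24.7% of all genes. Of the 22 genes, 0 were called with or without the block, at a median log2 fold change of 0.46, or 1.13 with the block. By mouse, the median difference of these genes was 1.12, -0.19 and 2.48. The replication licensing gene Mcm6 stood at 903 ± 68.2 CPM in CD61High and 432 ± 176 CPM in CD61Low (SD, n = 3). Its relative Mcm3 stood at 523, 592 and 586 CPM in CD61High of mice 1, 2 and 3, against 225, 456 and 210 CPM in CD61Low. Their log2 fold changes were 1.07 (SE 0.30, adjusted p = 0.676) for Mcm6 and 0.93 (SE 0.33, adjusted p = 0.715) for Mcm3, and both were higher in CD61High in 3 of 3 mice.

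Without mouse 2, edgeR called more genes, 0.855% of those tested without the block and 4.77% with it. In the immediate-early list 3 of 26 tested genes then fell without the block and 11 with it. In the proliferation list 7 of 22 then rose without the block and 8 with it. In the deadenylation list 0 of 16 were called without the block and 2 rose with it. Among the GADD45 partners 1 of 14 rose in both fits, and among the other polo-like kinases 1 of 4 fell in both. Of the p53 targets 0 of 21 were called without the block and 1 fell with it. Of the upstream regulators 0 of 13 were called without the block, and with it 1 rose and 2 fell.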

How the data were processed

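For the 6 libraries, cDNA was made from 4 ng of RNA with a SMART-Seq v4 kit and 1 ng of it went into Nextera XT libraries, per the labels' protocols; neither kit marks strand. The authors deposited raw counts of reads per gene, 1 table per library and 1 for the series. The tools named in the submitters' processing notes are STAR 2.7, MultiQC and edgeR; the build is not given in the sources used here. All 55450 identifiers matched GENCODE M21 (GRCm38). The series table lists 17500 genes (smallest sum over libraries 31), and its values matched those of the single tables, with 0 differences. Unstranded counts were used, since 49.9% to 50.0% of stranded counts lay on the first strand. Of all reads, 4.36% to 10.9% were unmapped, 10.0% to 15.6% multimapping, 2.88% to 4.21% outside genes and 3.55% to 4.37% ambiguous; these lines stayed out of the tests. No 2 libraries agreed within sampling noise (in 15 pairs, chi-square over its degrees of freedom was 40.6 or more).

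edgeR 4.0.16 (R 4.3.3) tested CD61High over CD61Low by quasi-likelihood with robust dispersion, TMM factors, filterByExpr and Benjamini-Hochberg adjustment over 15610 genes, two-sided, without a block; SEs derive from its F statistic. The mouse block, DESeq2 1.42.0, limma 3.58.1 voom, other factors, no filter and left-out libraries were alternatives. The pairing comes from the mouse numbers in the titles. Deviations from the group means correlated at 0.24, 0.81 and 0.76 within mice 1, 2 and 3, against -0.82 to 0.37 between mice. For mouse 1 the values do not bear out the pairing. Its CD61High library correlated more with CD61Low of mouse 3 (0.37) than with its own partner (0.24). Log2 CPM carried a prior count of 2, and CPM per kilobase used the union of annotated exons. The fits were also run on simulated counts in which no mouse stood apart, so that run does not cover the spread seen here for mouse 2. The 9 genes and the lists, 206 symbols that all matched, were written with earlier results of these data known. Named genes were the 9, the polo-like kinases, the 2 of each pathway list with the smallest unadjusted p and the 3 most similar to each of the 9; Fos and the marker and sort genes with calls were named after their values were seen. The core motif TGACG was added after the promoters were seen, and 1 match is not reported here.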

Additional observations from a re-analysis of the deposited data

How the results depend on the processing

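The 9 genes gave 216 values under 24 alternatives, of which 200 kept their direction and side of the threshold, 7 became called and 9 changed sign. Among the 9 genes, 1 was called with the mouse block and RLE factors (Btg2), 3 in DESeq2 with the block (Btg1, Btg2 and Gadd45a) and 2 in limma voom with the block (Btg2 and Gadd45a). These settings called 0.564%, 10.0% and 2.13% of all genes. Leaving out libraries or mice gave 0 to 1 called gene of the 9, and the 1, Btg2, was with the block and without mouse 2. That setting called 4.77% of all genes. Leaving out CD61Low of mouse 2 turned Btg1, Gadd45a and Plk3 to 0.45, 0.030 and 0.068. Leaving out CD61Low of mouse 1 turned Btg3 and Gadd45g to -0.060 and -0.01. Leaving out mouse 1 turned them to -0.048 and -0.067, or -0.035 and -0.067 with the block. Over all settings that left out a library or a mouse without the block, Btg1 ranged from -1.91 to 0.45, Btg2 from -2.32 to -0.06 and Gadd45a from -2.04 to 0.03. Gadd45b ranged from -1.27 to -0.08, Plk3 from -0.71 to 0.07, Btg3 from -0.06 to 0.33 and Gadd45g from -0.07 to 0.28. Tob1 and Tob2 stayed below 0, at -0.73 to -0.19 and -0.61 to -0.28. The cause of these ranges was not tested. Among all genes, the replicate block called 40 (15 higher, 25 lower), 88 with RLE factors (25 higher, 63 lower) and 8 with upper-quartile factors (6 higher, 2 lower). DESeq2 called 230 without and 1566 with the block, limma voom 333 with it, and settings that left out libraries 0 to 742; without mouse 2 the counts were 133 without and 742 with the block. Over the 7 pathway lists the counts were 2 with the block, 3 and 1 with RLE and upper-quartile factors added, 5 in DESeq2, 31 in DESeq2 and 11 in limma voom with the block, and 0 to 25 with libraries left out. With 3 mice, the unblocked test had 4 residual degrees of freedom and the blocked test 2.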
